A study of Mus musculus with 2 samples.

Results

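Imprinted genes are transcribed only or mainly from one parental allele, some of them only in certain tissues. A list of 39 was followed in the pancreas of newborn mice with and without a working Glis3 gene. Glis3 is a DNA-binding zinc finger protein of the Krüppel-like family, and the study examined its role in the development of beta cells. The mutant pool came from mice homozygous for the mutant allele, Glis3zf/zf, which the labels also call Glis3KO, and the control pool came from wild-type (WT) mice. Both were taken at postnatal day 3, and in each genotype the total RNA of 2 pups was pooled. The labels give no strain, sex or litter, and no parent of origin was read in these samples, since an array probe reads both alleles together. The pools were hybridised together on 2 two-colour Agilent arrays of 60-base probes, with the dyes exchanged between the arrays. Each genotype is therefore 1 sample, no test between genotypes can be made, and no p-value is given. The error written after ± is the distance of either array from the mean of both, which measures technical error and not the variation between animals. Where the genotypes are said not to overlap, the signals compared are 2 readings of 1 pool each, so this too describes technical repeats. The share of all genes that do not overlap is not given, so a lack of overlap is not read as a result. It also occurs at small differences. The normalised Peg3 signals did not overlap either, at 1068 and 1035 in the mutant against 986 and 997 in the wild type.

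Genomic imprinting is set in the parents' germ cells, mainly as DNA methylation at imprinting control regions, and is kept in the cells of the offspring. Most imprinted genes lie in clusters that share such a control region, often with a long noncoding RNA transcribed from one of the parental chromosomes. Many act in growth before and after birth, where paternally expressed genes tend to promote growth and maternally expressed genes tend to restrain it. In the pancreas several of them, among them those for neuronatin and the cell cycle inhibitor Cdkn1c, are known for roles in islet cells.

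The 39 genes were listed by name and matched to the arrays through the RefSeq accession or the gene symbol of each probe, older symbols included. The probes of H19 and the second Ascl2 probe were matched by hand from their descriptions. Of the 39 genes, 35 had at least 1 probe, with 59 probes in all, and 17 genes had 2 or more. No probe was found for Rtl1, Magel2 or Zim3, and none was matched to Nesp, a transcript of the Gnas locus. A probe described as Gnas transcript variant 3 is given under Gnas, and whether it reads Nesp is not known from the files. The probe of Slc22a3, an organic cation transporter gene, was not well above background in either genotype. This left 34 measured genes out of the 16499 genes measured in all, and no spot of these genes was saturated. Paternally expressed genes made up 19 of the list, of which 17 were measured, and maternally expressed genes made up 18, of which 15 were measured. Gnas, whose transcripts differ in parental origin, and Ddc8, for which no origin was assigned, formed the rest. The parental origins are textbook knowledge, some of it from other tissues such as placenta, and not measurements of these arrays. Whether a listed gene is imprinted in pancreas was not measured.

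Promoter windows of 29 of the 39 genes were held by RefSeq for assembly GRCm38.p6, each running from 250 bases before to 50 bases after a transcription start, 43 windows in all. Imprinting marks sit on the CpG dinucleotide, so a pair of windows is shown with each CpG in capitals. Nnat is printed because it had the lowest ratio of the list. Peg3 is printed because its window shares 263 bases with that of Usp29, which is transcribed in the opposite direction, so that both paternally expressed genes start within one stretch of DNA. The Nnat window lies at chr2:157559828-157560127 on the plus strand and holds 17 CpG. The Peg3 window lies at chr7:6730370-6730669 on the minus strand and holds 13 CpG. Each is written 5′ to 3′.
Nnat: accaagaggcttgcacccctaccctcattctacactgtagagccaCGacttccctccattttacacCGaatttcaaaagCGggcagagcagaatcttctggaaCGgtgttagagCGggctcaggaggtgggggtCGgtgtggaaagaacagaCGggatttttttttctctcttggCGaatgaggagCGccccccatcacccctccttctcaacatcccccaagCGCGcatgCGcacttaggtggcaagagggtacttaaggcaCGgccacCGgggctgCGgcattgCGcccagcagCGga
Peg3: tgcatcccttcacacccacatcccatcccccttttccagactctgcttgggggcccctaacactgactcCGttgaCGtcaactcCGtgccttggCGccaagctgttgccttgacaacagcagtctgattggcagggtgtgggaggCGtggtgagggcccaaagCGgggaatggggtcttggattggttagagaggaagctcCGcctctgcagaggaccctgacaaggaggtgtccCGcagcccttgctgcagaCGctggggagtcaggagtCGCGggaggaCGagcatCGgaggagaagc

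The windows of the listed genes held a median of 13 CpG and a median GC content of 57.7%, against 7 CpG and 52.7% over all 32851 RefSeq windows of the same length. The number of CpG ran from 1 in a window of Meg3 to 48 in a window of Ppp1r9a. The windows of paternally expressed genes had a median of 10.5 CpG and those of maternally expressed genes a median of 20. Several windows belong to the same gene, so they are not independent. The letters TGGGGGGT, a core known from the DNA motif bound by the Glis proteins, were searched on both strands. They occurred in 4 of the 43 windows (9.30%), 1 each of Gnas, Meg3, Mkrn3 and Ppp1r9a, and in 1.53% of all windows. The part of the higher GC content in this difference was not tested. The letters CANNTG, in which N is any base, were also searched, and occurred in 72.1% of the 43 windows and 72.3% of all. A match of letters is not a binding site, and no binding was measured in these samples. The Meg3 window is printed because it alone of the 43 holds 2 matches of TGGGGGGT. These are in capitals, overlap in 1 base and lie on the printed plus strand. The window lies at chr12:109545148-109545447 and is the second of a pair of Meg3 windows.
Meg3: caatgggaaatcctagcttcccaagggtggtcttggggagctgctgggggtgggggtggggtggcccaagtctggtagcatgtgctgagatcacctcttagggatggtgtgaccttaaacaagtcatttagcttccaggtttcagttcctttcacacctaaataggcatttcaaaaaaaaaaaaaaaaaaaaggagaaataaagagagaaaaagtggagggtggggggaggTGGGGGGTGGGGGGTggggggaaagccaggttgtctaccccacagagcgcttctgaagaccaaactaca

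No measured imprinted gene differed by as much as 2-fold between mutant and wild type. By the rule of size used here, a 2-fold or larger mean difference that also reaches 1.5-fold, with the same sign, on both arrays, 0 of the 34 genes were higher in the mutant and 0 were lower. Over all 16499 genes the same rule gave 38 higher (0.230%) and 25 lower (0.152%), or 0.382% in either direction. At a smaller size, a mean of at least 0.322 log2 with the same sign on both arrays, 0 of the 34 were higher. By that rule 1, Nnat, was lower. These counts use the brightest unsaturated probe of each gene. Dimmer probes of listed genes, not counted here, passed the rule for H19 (0.35, higher), Meg3 (-0.62, lower) and Kcnq1ot1 (-0.33, lower). Over all genes 1.78% were higher and 2.60% lower by this smaller rule, or 4.38% in either direction. Centring each array on its median in place of loess moved that split from 293 higher and 429 lower to 231 and 646, and added Cdkn1c, Impact and Tssc4 to the lower imprinted genes. The mean log2 ratios of mutant over wild type ran from -0.66 for Nnat to 0.30 for Grb10, with a median of 0.02, beside a median of 0.00 over all genes. Ratios were above 0 on both arrays for 16 of the 34 genes (47.1%) and below 0 on both for 11 (32.4%). The shares over all genes were 32.4% and 30.5%.

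The parental origin listed for the genes did not separate them by sign. Among the 17 measured paternally expressed genes 9 were above 0 on both arrays and 6 below, and their median log2 ratio was 0.01. Among the 15 measured maternally expressed genes 5 were above 0 on both arrays and 5 below, and their median was also 0.01. With the mutant in Cy5 the medians were 0.01 for paternally and 0.11 for maternally expressed genes, and with the mutant in Cy3 they were 0.00 and -0.08. The medians of the maternally expressed genes thus differed in sign between the dye orientations. For comparison, the technical SD of a single gene's mean ratio was 0.08 log2 over the 16436 genes not past the 2-fold rule. It ran from 0.07 among the dimmest to 0.10 among the brightest, and is not the error of a median.

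**Figure D1:**
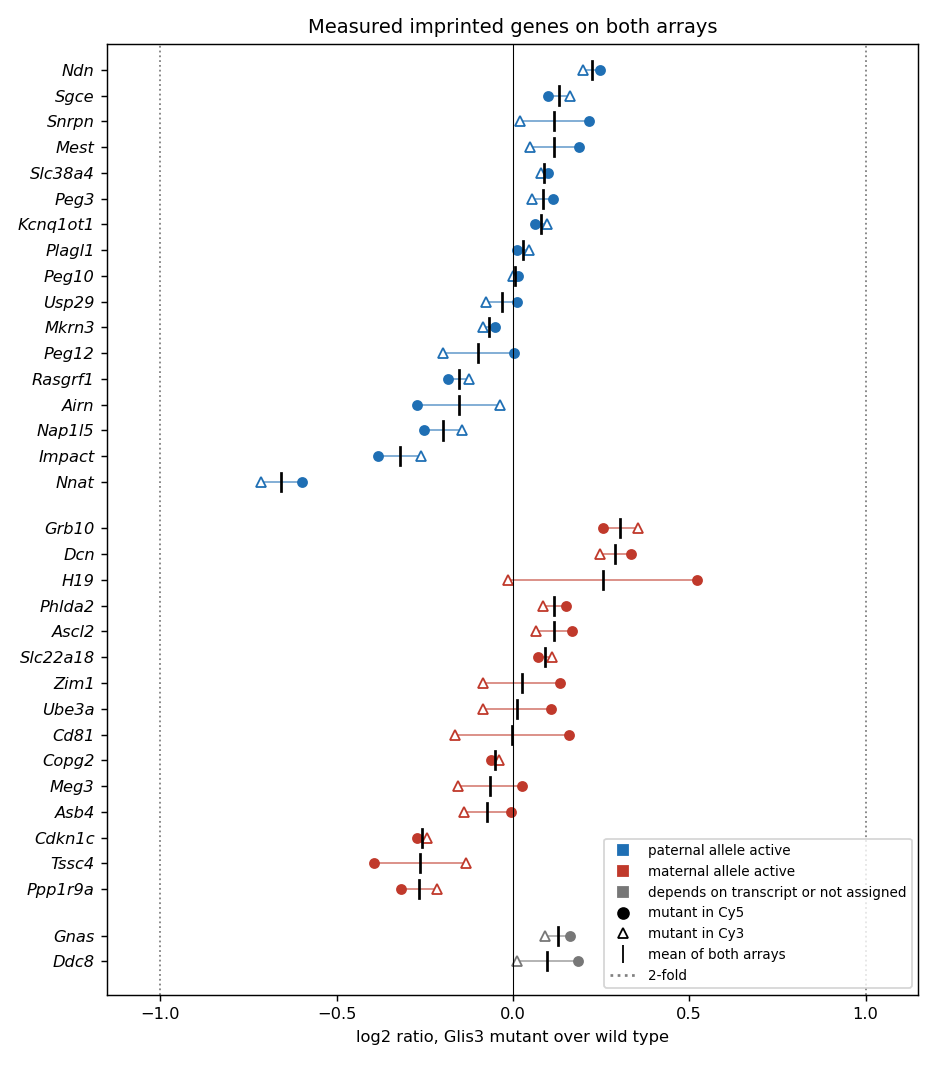
Log2 ratio of Glis3 mutant over wild type for each of the 34 measured imprinted genes, 1 line per gene, with circles for the array with the mutant in Cy5, triangles for the array with the mutant in Cy3 and black ticks for their mean. Colours mark the listed parental origin and dotted lines mark 2-fold. Every gene lies inside these lines, with Nnat lowest at -0.66 and Grb10 highest at 0.30.

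**Figure D2:**
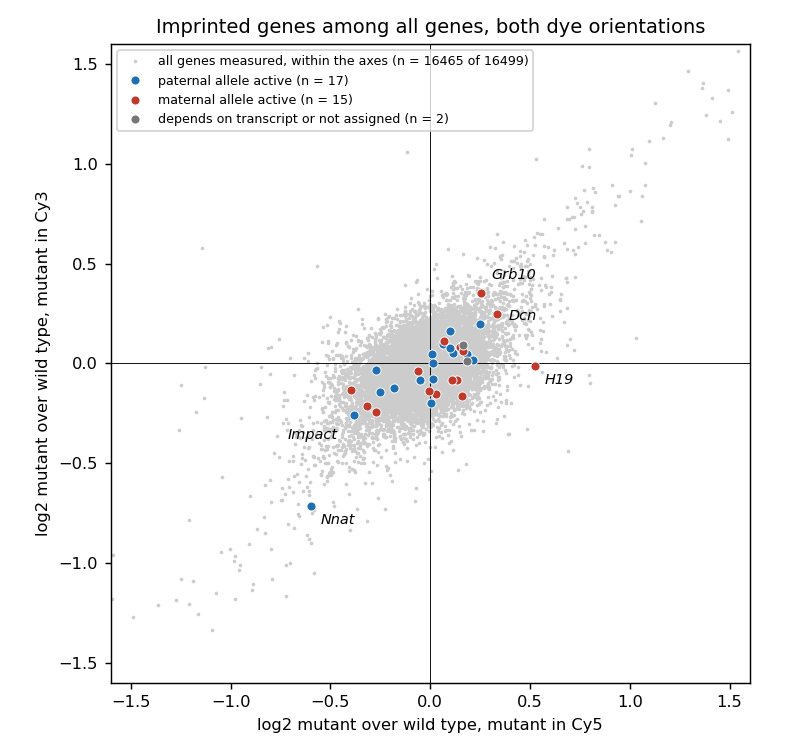
Log2 ratio of mutant over wild type with the mutant in Cy5 (horizontal axis) against that on the array with the mutant in Cy3 (vertical axis), with grey points for 16465 of the 16499 genes measured (the others lie outside the axes) and coloured points for the 34 imprinted genes. Most imprinted genes lie within the central cloud, Nnat lies below it on both axes, and H19 lies far to the right with the mutant in Cy5 only.

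Nnat encodes neuronatin, a small membrane protein of the endoplasmic reticulum found in brain and in pancreatic islets, where it takes part in insulin handling. Its probe (NM_010923) lies at chr2:157019212-157019271 in the coordinates of the files. The normalised signal was 428 in mutant RNA against 649 in wild-type RNA with the mutant in Cy5. It was 433 against 710.2 with the dyes exchanged. Both mutant signals were below both wild-type signals, and the log2 ratios were -0.60 and -0.71. The mean was -0.66 ± 0.06, which is 1.58-fold lower in the mutant. Only 68 of the 16499 genes had a lower mean ratio.

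The islet hormone genes were lower in the same pool. All 8 of those listed and measured were below 0 on both arrays, with a median log2 ratio of -2.06. Ins1 was saturated in the wild type on 1 array and Ins2 on both, so their ratios are only bounds, and the other 6 ran from -2.15 for Ppy to -0.51 for Iapp. With saturated spots at their measured value, which makes the wild-type sums lower bounds, their summed normalised signal came to 72684 in mutant RNA against 238528 in wild-type RNA with the mutant in Cy5, and 62087 and 236319 with the mutant in Cy3. Genes of neurons and Schwann cells, the other tissue known for Nnat, had a median of -0.13, with 5 of 7 below 0 on both arrays and none above. Their summed signal was 3712 in the mutant against 4015 in the wild type with the mutant in Cy5, and 3488 against 3803 with the mutant in Cy3. In whole pancreas, fewer cells of a type and less RNA per cell cannot be told apart. The part of the islet and nerve genes in the ratio of Nnat was not tested. Blcap, in whose intron Nnat is known to lie, had log2 ratios of -0.13 and -0.26 (mean -0.20), a smaller difference than that of Nnat. A second, dim Blcap probe gave 0.18 and -0.07, a mean of 0.06 ± 0.13.

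Other paternally expressed genes were lower on both arrays by smaller amounts. Impact encodes a regulator of the Gcn2 kinase in the response to amino acid shortage. Its signals were 350.4 in the mutant against 457 in the wild type with the mutant in Cy5, and 414 against 496 on the other. The signals of the genotypes did not overlap, and the mean log2 ratio was -0.32 ± 0.06, which at -0.321 lies just short of the smaller rule. Nap1l5, a gene of the nucleosome assembly protein family, had signals of 113 against 135 and of 116 against 128, in the same order, for a mean of -0.20 ± 0.05. Airn is the noncoding RNA that silences Igf2r on the paternal chromosome. Its signals were 110.3 against 133 and 133 against 136, with a mean of -0.15 ± 0.12, so that the second array showed almost no difference.

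Rasgrf1 encodes a guanine nucleotide exchange factor for Ras that is known in brain and in beta cells. The probe named by its accession was dim, with signals of 72.5 in the mutant against 82.3 in the wild type and of 71.4 against 77.8, and a mean log2 ratio of -0.15 ± 0.03. This value depends on the background correction: it was -0.49 with the software's ratios and in the deposited table, and -0.46 with offset 0, which are past the smaller rule. There were 3 further probes that carry the gene's name only in the description of a GenBank record. Their means were -0.15, -0.20 and -0.28. All 4 probes were below 0 on both arrays. The brightest of the 4 had signals of 382 against 443 and of 358 against 409.

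The paternally expressed genes on the higher side had small ratios. Ndn encodes necdin, a growth suppressor of the Prader-Willi region. Its signals were 941 in the mutant against 793 in the wild type and 1044 against 909, the mean log2 ratio was 0.22 ± 0.02, and the genotypes did not overlap. Sgce, which encodes epsilon-sarcoglycan, had a mean of 0.13 ± 0.03, and a second Sgce probe gave 0.14. Mest encodes a hydrolase-like protein of mesodermal tissue. Its signals were 15362 against 13496 and 13705 against 13256, the mean was 0.12 ± 0.07, and each mutant signal exceeded both wild-type signals. Snrpn, which encodes a spliceosomal protein, had log2 ratios of 0.22 and 0.02 and a mean of 0.12 ± 0.10. Slc38a4, an amino acid transporter gene, had a mean of 0.09 ± 0.01, but its second probe gave -0.02.

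By the probe used for each gene, the remaining paternally expressed genes lay close to 0. Other probes of Plagl1, Peg3 and Usp29 had larger ratios, which are given below. Plagl1, also known as Zac1, encodes a zinc finger factor of a network of imprinted genes, and its signals were 2228 against 2210.5 and 2478 against 2399, a mean of 0.03 ± 0.02. Peg10, a gene derived from a retrotransposon, had 65.6 against 64.9 and 74.1 against 74.1, a mean of 0.01 ± 0.01. The Peg10 probe was dim, and the offset draws the ratios of such probes towards 0, so little can be read from its value. Mkrn3, a ubiquitin ligase gene, had a mean of -0.07 ± 0.02, and Peg12 had -0.10 ± 0.10 with its arrays on either side of 0. Peg3, which encodes a zinc finger protein, had a mean of 0.08 ± 0.03, and Usp29, which starts within the stretch printed above, had -0.03 ± 0.04.

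Among maternally expressed genes, 3 with the lowest ratios had means close to one another. Cdkn1c encodes p57, an inhibitor of cyclin-dependent kinases that restrains growth in the fetus. Its signals were 6449 in the mutant against 7785 in the wild type with the mutant in Cy5, and 6955 against 8233 on the other. Both mutant signals were below both wild-type signals, and the mean log2 ratio was -0.26 ± 0.01. Tssc4, a neighbour of Cdkn1c in the Kcnq1 cluster, had signals of 1318 against 1733 and of 1548 against 1698. Its mean was -0.26 ± 0.13, and the genotypes again did not overlap. Ppp1r9a encodes neurabin, a protein that binds actin and protein phosphatase. Its brightest probe had signals of 501 against 624 and of 515 against 598, with a mean of -0.27 ± 0.05, whereas the other 3 probes named by accession gave -0.03, -0.06 and -0.01.

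Grb10, Dcn and H19 had the highest ratios of the list. Grb10 encodes an adaptor that dampens signalling from the insulin and insulin-like growth factor receptors. Its signals were 2626 in the mutant against 2199.8 in the wild type with the mutant in Cy5, and 2709 against 2119 on the other. The genotypes did not overlap on this probe, and the mean log2 ratio was 0.30 ± 0.05, or 1.24-fold higher. Its other probes, which were dimmer, gave 0.11 and -0.04. Only 338 of all genes had a higher mean ratio than the brightest Grb10 probe.

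Dcn encodes decorin, a proteoglycan of the connective tissue matrix, and its imprinting is best known from placenta. Its signals were 20346 against 16130.3 and 20328 against 17144, with no overlap and a mean of 0.29 ± 0.04. Genes of mesenchyme, the source of such matrix, had a median log2 ratio of 0.16, with 7 of 15 above 0 on both arrays and 2 below. Their individual ratios ran from -0.26 for Dpt to 0.69 for Mfap4. Their summed signal was 149694 in the mutant against 121370 in the wild type with the mutant in Cy5, but 129697 against 132051 with the mutant in Cy3. The part of mesenchyme in the ratio of Dcn was not tested.

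H19 is a noncoding RNA that shares its control region with Igf2 and is abundant in fetal and newborn tissue. Its brightest probe had signals of 13342 in the mutant against 9283 in the wild type with the mutant in Cy5, but 9929 against 10028 with the mutant in Cy3. The log2 ratios were thus 0.52 and -0.01, and the genotypes overlapped. A second probe gave 0.49 and 0.22, a mean of 0.35 ± 0.13, with both arrays above 0. Igf2, the paternally expressed growth factor gene of the same cluster, gave 0.39 and -0.35 on its brightest probe, a mean of 0.02 ± 0.37. Its second probe gave 0.21 and 0.06. For both transcripts the brightest probe therefore gave opposite signs on the arrays, and no direction can be read from it. Skeletal muscle genes, from a tissue with abundant H19 in newborns, had a median of 1.31, with 20 of 23 above 0 on both arrays, 1 below, and 12 past the 2-fold rule. Their summed signal was 31911 in the mutant against 9288 in the wild type with the mutant in Cy5, and 30890 against 8645 with the mutant in Cy3. The part of muscle tissue in the ratio of H19 was not tested.

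The other maternally expressed genes lay closer to 0. Phlda2, a growth restraining gene of placenta, had a mean log2 ratio of 0.12 ± 0.03, Ascl2, which encodes a basic helix-loop-helix factor, 0.12 ± 0.05, and Slc22a18, a transporter gene, 0.09 ± 0.02. These were above 0 on both arrays, but the second probes of Phlda2 and Ascl2 gave 0.01 and -0.01. Cd81, which encodes a tetraspanin of the cell surface, had signals of 11384 against 10191 and of 10540.0 against 11804, so its arrays gave 0.16 and -0.16. Ube3a, the ubiquitin ligase gene of Angelman syndrome, gave 0.11 and -0.08, and Zim1, a zinc finger gene, 0.13 and -0.08. Asb4 and Copg2, which encode a ubiquitin ligase adaptor and a coatomer subunit, had means of -0.07 and -0.05. Gnas, the gene of the stimulatory G protein subunit, had a mean of 0.13 ± 0.04, and Ddc8 had 0.10 ± 0.09. The probes of Zim1 and Ddc8 were dim, and their means were 0.11 and 0.29 with the software's ratios.

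Meg3, also known as Gtl2, is a long noncoding RNA expressed from the maternal allele of the Dlk1 cluster, and its probes disagreed in size. The brightest probe, matched through that older symbol, had signals of 1443 in the mutant against 1416 in the wild type and of 1490.3 against 1660.2. Its log2 ratios were 0.03 and -0.16, with a mean of -0.06 ± 0.09. A second probe gave a mean of -0.03 ± 0.09, and another, with signals of 199 against 391 and of 241 against 292, gave -0.62 ± 0.35. A further probe, for a GenBank record that the files pair with Meg3, was brighter than these 3, with 6272 against 7625 and 5614 against 6390. That probe gave -0.23 ± 0.05, and the genotypes did not overlap on it. Another further probe, for a clone, gave -0.15 ± 0.06. Rian, a noncoding RNA of the same cluster, had a mean of -0.12, and Dio3, which encodes a thyroid hormone deiodinase, had -0.14. Dlk1, the paternally expressed gene of this cluster, which encodes a Delta-like protein of immature cells, had log2 ratios of 0.55 and 0.06 and a mean of 0.31 ± 0.25. Its second probe gave 0.62 and 0.29, a mean of 0.46 ± 0.16.

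Probes of one gene also disagreed for Kcnq1ot1, Usp29, Peg3 and Plagl1. Kcnq1ot1 is the noncoding RNA that silences genes of the Kcnq1 cluster on the paternal chromosome. Its brighter probe had a mean of 0.08 ± 0.02 and its dimmer one -0.33 ± 0.10, so no direction can be given for it. The second Usp29 probe gave -0.32 ± 0.09 and the second Peg3 probe 0.29 ± 0.13, both larger in size than the brightest probes. A brighter Plagl1 probe, named only by the description of its record, gave 0.31 ± 0.17. For Gnas, further probes gave -0.03 for the XLalphas transcript, -0.22 for a noncoding RNA over its first exons, and -0.29 for another record of the locus. One more, for a cDNA record, gave -0.08, so these 4 lay below 0. The probes of Gnas named by accession lay above 0, the others besides the brightest at 0.12 and 0.04, and at 0.06 ± 0.14 for transcript variant 3, the probe that may or may not read Nesp. The files hold no probe sequences and do not state which transcripts a probe reads.

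**Figure D3:**
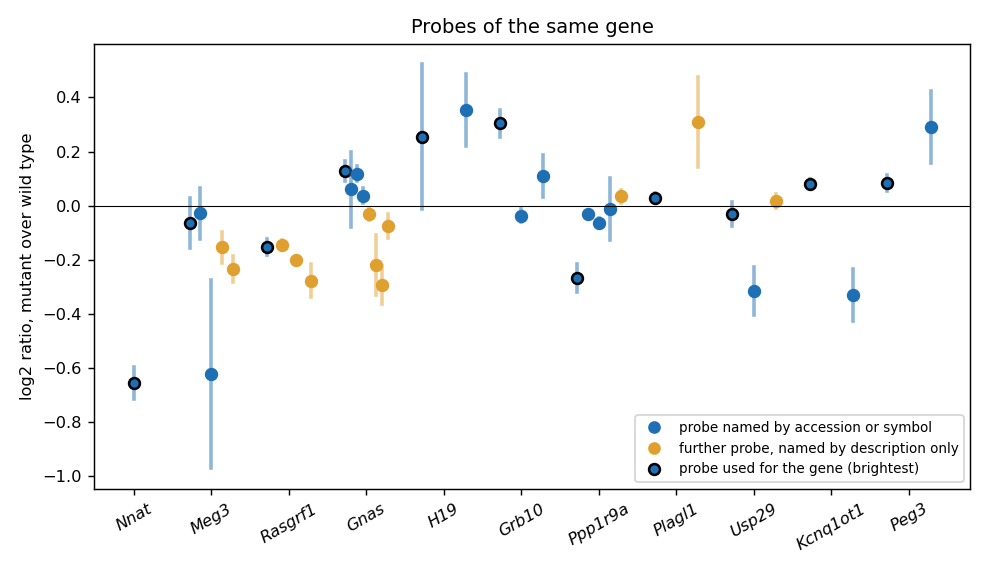
Mean log2 ratio of mutant over wild type (points) for every probe of 11 imprinted genes, with bars that join the values of the dye orientations. Blue points are probes named by accession or symbol or, for H19, by hand from a description. Orange points are further probes named only by a description, and a black outline marks the probe used for the gene. The probes of Meg3 run from -0.62 to -0.03. Those of Rasgrf1 all lie below 0, and those of Kcnq1ot1 lie on either side of 0.

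Within the larger clusters the ratios lay on either side of 0. In the Kcnq1 cluster 13 genes were measured, members of the list and neighbours, and their means ran from -0.26 for Tssc4 to 0.12 for Phlda2, with 6 above 0 on both arrays and 3 below. Cdkn1c and Phlda2, both maternally expressed from this cluster, lay on opposite sides of 0 on both arrays by the probes used. The second Phlda2 probe gave 0.07 and -0.05. The 9 genes around Peg10 and Sgce ran from -0.27 for Ppp1r9a to 0.13 for Sgce. The 7 genes around Snrpn ran from -0.10 for Peg12 to 0.22 for Ndn. In the Grb10 cluster, Grb10, Ddc and Cobl had means of 0.30, 0.17 and 0.08. In the Igf2r cluster, Airn, Igf2r and Slc22a2 had means of -0.15, -0.06 and -0.17. The arrays lay on either side of 0 for Cobl (0.17 and -0.02) and for Igf2r (-0.14 and 0.02). The dimmer Grb10 probes gave 0.11 and -0.04.

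**Figure D4:**
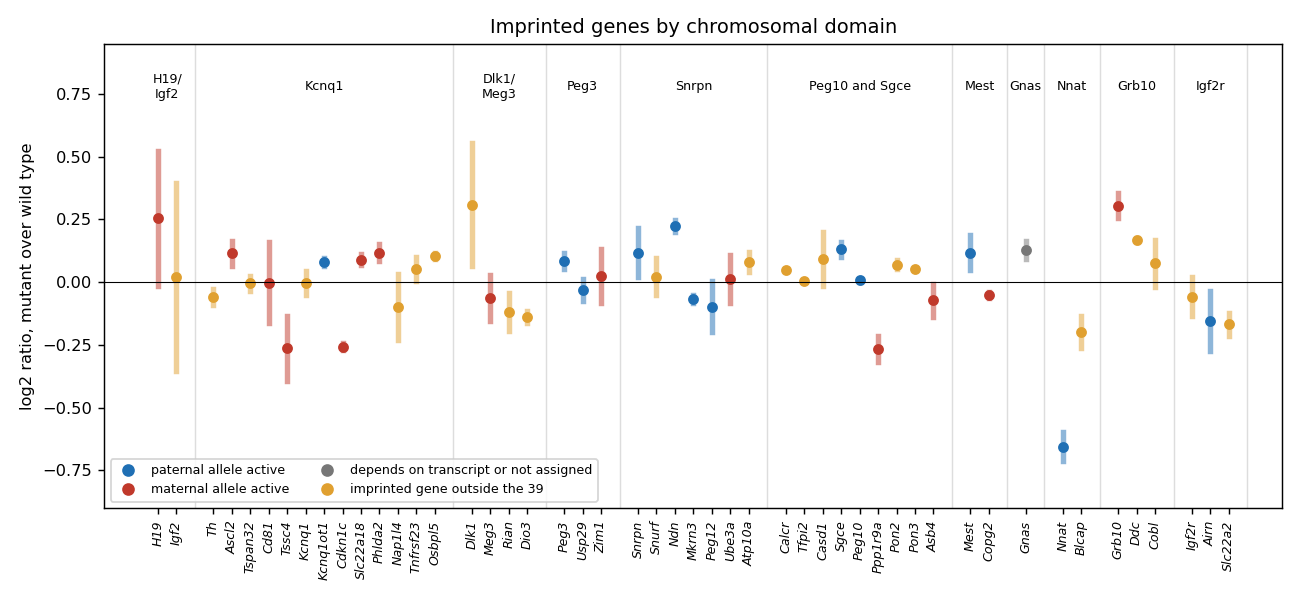
Mean log2 ratio of mutant over wild type (points) for the imprinted genes of each chromosomal cluster. Bars join the values of the dye orientations. Colours mark the listed parental origin or an imprinted gene outside the list of 39. Nnat at -0.66 is the lowest gene shown, and the bars of H19, Igf2 and Dlk1 are long, since their arrays differed by more than 0.4 log2.

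A second list held 41 other imprinted genes, of which 35 were measured. By the 2-fold rule 0 were higher and 0 lower, and their median log2 ratio was 0.00. The second Dlk1 probe, not used for the gene, was past the smaller rule at 0.46. By the probes used, 1 gene was lower by that rule, Gatm, which encodes the first enzyme of creatine synthesis and is imprinted in placenta. Its signals were 3529 in the mutant against 5063 in the wild type and 3370 against 4769.7, with no overlap and a mean of -0.51 ± 0.01. Igf2r, which encodes the receptor that clears Igf2, had a mean of -0.06 ± 0.08. Of 24 genes that set or keep imprints, 18 were measured, 0 passed the 2-fold rule, and their median was 0.05. Of these 18, 7 were above 0 on both arrays and 3 below. The DNA methyltransferase genes Dnmt1, Dnmt3a and Dnmt3b had means of 0.11 ± 0.13, 0.17 ± 0.05 and 0.05 ± 0.13. The arrays lay on either side of 0 for Dnmt1 and Dnmt3b. Uhrf1, of the same list, was below 0 on both arrays, with a mean of -0.18 ± 0.05. Trim28, which encodes a corepressor that protects imprints in the embryo, had log2 ratios of 0.55 and 0.10, a mean of 0.33 ± 0.22, the only one of the 18 past the smaller rule.

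The Glis3 probe and the lists of cell type markers describe the pools as a whole. The Glis3 probe had signals of 119.5 in the mutant against 121 in the wild type and of 121 against 120.3, a mean log2 ratio of 0.00 ± 0.02. The files do not say whether the mutant allele removes the stretch that this probe reads, so it does not check the labels. The acinar, duct, endothelial, myeloid, adipocyte and erythroid lists had medians of -0.22, 0.22, -0.30, 0.33, 0.06 and -0.08. The acinar median rests on 7 of 16 genes, from -1.11 for Ctrl to 1.93 for Gp2, since 8 others had saturated spots in every channel. Endothelial genes were below 0 on both arrays for 7 of 9, and myeloid genes were above 0 on both for 7 of 7. On each array, 94.0% to 96.8% of spots were well above background in a channel, and the median spot signal ran from 207 to 265.

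**Figure D5:**
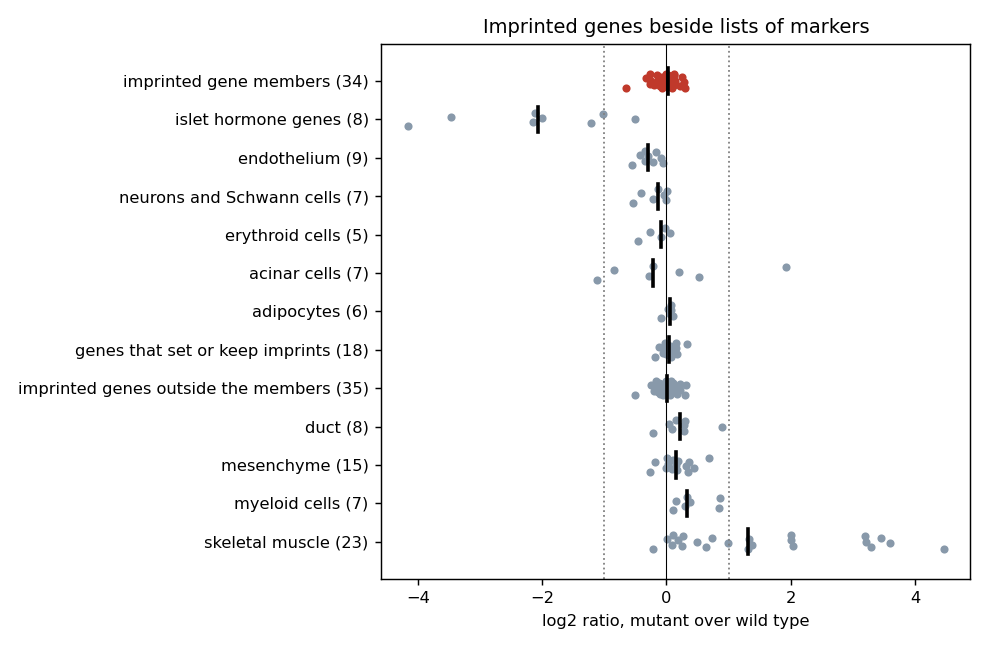
Mean log2 ratio of mutant over wild type for each measured gene (points) of the imprinted list and of 12 other lists, with black bars at the medians, dotted lines at 2-fold and the number of measured genes in parentheses. The imprinted genes lie between -0.66 and 0.30, the islet hormone genes have a median of -2.06 (the points of Ins1 and Ins2, the lowest, are bounds, since the wild type was saturated), and the skeletal muscle genes have a median of 1.31.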

How the data were processed

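Two-colour arrays of one mutant and one wild-type pool were analysed, each pool being RNA of 2 pups. Per the file headers, the deposited scanner files hold spot intensity and local background intensity on a linear scale, with the scanner software's own log10 ratio (red over green). The deposited series table holds log2 ratios, which equalled the software's mutant over wild type within 0.002 for 99.99% and 99.98% of probes, with column medians of 0. The submitters' processing notes name Feature Extraction 7.5, and the description in the labels adds Rosetta Resolver 6.0, whereas the file header records module version 8.5.1.1; which made the values is not settled here.

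Intensities were background-corrected by normexp (offset 50) and normalised by loess within each array with limma 3.58.1 and data.table (1.17.8), run in R 4.3.3, with control spots at weight 0. Outlier spots, 15 and 53 on the arrays, were left out. Spots of the same probe were averaged, and the ratios, signed so that mutant is the numerator on either array, were averaged over both. Channel signals in the text are those after loess and Aquantile normalisation. The brightest unsaturated probe stood for a gene, which was counted as measured if well above background in at least 1 genotype on both arrays, and genes saturated throughout were left out. Technical SD came from the half-differences between arrays of the genes not past the 2-fold rule. The processing was tested by scaling the mutant channel of randomly picked probes of these arrays by known folds. The probes picked were of middle brightness, so the test did not cover dim or very bright probes. Tables and figures were made with Python 3.11.15, numpy 2.4.6, pandas 2.3.3 and matplotlib 3.10.9.

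Of 41174 probes 23323 were named, through RefSeq accessions, symbols and older symbols of assembly GRCm38.p6, and 4 by hand from a description. Those 4 include the H19 probes and the second Ascl2 probe. Coordinates of probes come from the files, and the sources used here do not name their build. A further 16 probes, also linked to a listed gene only by description, were not used for the gene's value. Promoter sequences are from RefSeq, GRCm38.p6. The members and gene lists, their parental origins and the thresholds were chosen with earlier results of these data known. Sentences turned on genes past the rules of size or with disagreeing probes. Of the other imprinted genes and the imprint genes, those past the smaller rule, Igf2, Igf2r and Dlk1 were named, and cluster neighbours were given for comparison. Dnmt1, Dnmt3a, Dnmt3b and Uhrf1 were named after their values were seen. Alternatives were the software's ratios, offset 0, median centring, other filters on dim probes, the median over probes, the deposited log2 values, each array alone, the smaller rule of size and, chosen after seeing the data, the further probes. Only 2 arrays limit the precision.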

Additional observations from a re-analysis of the deposited data

How the results depend on the processing

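No imprinted gene passed the 2-fold rule, in either direction, with the software's ratios, offset 0, median centring, either filter on dim probes, the median over probes, the deposited table, either array alone or the further probes. The smaller rule of size gave 1 lower. That count of 1 became 3 with the software's ratios and the deposited table (Impact, Nnat and Rasgrf1), 4 with offset 0 (those and Nap1l5), and 4 with median centring (Cdkn1c, Impact, Nnat and Tssc4). The count over all genes rose too, from 429 to 735, 738, 681 and 646 with the software's ratios, the deposited table, offset 0 and median centring. The array with the mutant in Cy5 alone gave 2 higher (Dcn and H19) and 3 lower, and the other alone gave 1 higher (Grb10) and 1 lower; over all genes these were 450 and 812, and 303 and 430, beside 293 and 429. Nnat was among the lower genes each time, with means from -0.73 to -0.60. The median of the list ran from -0.02 to 0.07 over these settings, the ends coming from the single arrays. The median of the paternally expressed genes was 0.01 with loess and the brightest probe, and 0.0219 with the software's ratios, 0.0298 with offset 0, -0.0493 with median centring, -0.0677 with the median over probes and 0.02195 in the deposited table, and the cause was not tested. That of the maternally expressed genes ran from -0.08 to 0.11. Over all genes the 2-fold rule gave 38 higher and 25 lower, 50 and 44 with the software's ratios and the deposited table, and 49 and 42 with offset 0. The sign changed under at least 1 setting, single arrays included, for Plagl1, Usp29, Kcnq1ot1, Peg12, H19, Meg3, Zim1, Cd81 and Ube3a of the list, and for Igf2 and Igf2r outside it. No paired analysis was possible because each genotype has 1 sample. Dim probes such as those of Rasgrf1 and Peg10 have ratios drawn towards 0 by the offset.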
